A study of Homo sapiens with 12 samples.

Results

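The 3 CRTC coactivators (CRTC1, CRTC2, CRTC3) and the 3 transcription factors of the CREB family that they bind (CREB1, CREM, ATF1) were followed across 12 RNA-seq libraries of PANC-1 cells, an established human pancreatic carcinoma line. These 6 genes were taken by their Ensembl identifiers from the 60669 identifiers counted in each library, and 6 of 6 passed the filter on low counts. The cells received a control siRNA or a SIK3 siRNA for 72 h and were then left unstimulated or given 100 ng/mL of recombinant human TNF-α for 30 min or 4 h, with 2 biological replicates in each of the 6 groups. PANC-1 carried no other stated genetic change, all cells were transfected, and the design text names a single siRNA for the target, so an effect of that siRNA on other transcripts cannot be told apart from loss of SIK3.

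The sample titles and the names of the deposited tables disagree for 8 of the 12 libraries, that is for 4 of the 6 groups. The titles call the target AS1 and the table names call it SIK3. The groups below follow the words in the table names, with Scr1 read as control siRNA and CLM read as no TNF, and every statement that names an siRNA or a time refers to libraries so named. The same pairs of libraries stand together under both namings and only their labels differ. The pair named control siRNA with TNF for 30 min is titled SIK3 siRNA without TNF. The pair named control siRNA with TNF for 4 h is titled control siRNA with TNF for 30 min. The pair named SIK3 siRNA without TNF is titled SIK3 siRNA with TNF for 30 min, and the pair named SIK3 siRNA with TNF for 30 min is titled control siRNA with TNF for 4 h. Unstimulated control cells and SIK3 siRNA with TNF for 4 h carry the same label in both.

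CREB1, CREM and ATF1 are closely related basic leucine zipper proteins that bind the cAMP response element (CRE) as homodimers or heterodimers. They are phosphorylated by protein kinase A and other kinases, which lets them recruit the histone acetyltransferases CBP and p300. CRTC proteins are a separate input to the same factors: salt-inducible kinases (SIK1, SIK2 and SIK3) phosphorylate them, 14-3-3 proteins then hold them in the cytoplasm, and when SIK activity is low or calcineurin removes the phosphates they enter the nucleus and bind the leucine zipper of CREB. That control acts on the proteins and on their place in the cell, whereas the measurements here are of messenger RNA. The CREM gene gives rise to activators and, from internal start sites, to the short repressor ICER, which is itself transcribed through CREs.

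CREM was the member with the largest difference between the siRNAs, so the sequences before its internal starts are shown, from the RefSeq promoter table of GRCh38.p14. Capitals mark matches to the CRE-like letters TGANGTCA, and each of the 2 longer sequences ends at the base before an internal start. For the first this is the GENCODE 29 start at position 35195127, which lies before the start at 35195133 in the RefSeq table, and for the second it is the start at 35195850 in that table. Both lie on the plus strand of chromosome 10, at chr10:35194883-35195126 (244 bases) and chr10:35195600-35195849 (250 bases), between exons of CREM:
CREM internal start 1: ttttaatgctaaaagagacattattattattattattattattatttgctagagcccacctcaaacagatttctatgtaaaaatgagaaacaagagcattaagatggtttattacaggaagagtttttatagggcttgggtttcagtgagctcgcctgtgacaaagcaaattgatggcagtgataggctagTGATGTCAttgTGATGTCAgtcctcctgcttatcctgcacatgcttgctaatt
CREM internal start 2: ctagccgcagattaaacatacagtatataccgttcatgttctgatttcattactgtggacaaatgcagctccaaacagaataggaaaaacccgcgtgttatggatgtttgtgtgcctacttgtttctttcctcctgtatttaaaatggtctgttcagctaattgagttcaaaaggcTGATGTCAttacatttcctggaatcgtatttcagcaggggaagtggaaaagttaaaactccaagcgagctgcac
CREM internal CRE: agctgcacatTGACGTCAgctccgagtc

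In the first of these the 2 matches begin 53 and 42 bases before the start, and in the second the single match begins 74 bases before it. The short sequence printed last, chr10:35195842-35195869 (28 bases), holds the full palindromic CRE, TGACGTCA, just past the second start and inside a CREM exon. The table covers each start from 250 bases before it to 50 bases after it. Of its 35116 windows of this length, read on both strands, 1.85% held TGACGTCA, 7.72% held TGANGTCA, which includes the former, and 24.6% held the CRE half-site letters TGACG, which overlap it. CREM had 7 windows, of which 2 held TGACGTCA, 4 held TGANGTCA and 3 held TGACG; the 2 windows with TGACGTCA overlap and hold the same CRE, so it enters each count 2 times. The single windows of CREB1 and CRTC1 and the 3 windows of ATF1 held none of the 3, and that of CRTC3 held TGACG. CRTC2 was not examined for these letters. These matches describe letters and not binding. GENCODE 29 lists 48 CREM transcripts, of which 10 start at or past position 35195127, the earlier of these internal starts. The counts are per gene, so full-length CREM and transcripts from the internal starts could not be separated.

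On GRCh38 the other members lie on chromosome 19 (CRTC1, 18683677 to 18782333), chromosome 1 (CRTC2, 153947669 to 153958625, minus strand), chromosome 15 (CRTC3, 90529925 to 90645345), chromosome 2 (CREB1, 207529737 to 207603431) and chromosome 12 (ATF1, 50763710 to 50821122). CREM (chromosome 10, 35126791 to 35212958) shares 205 exon bases with the antisense gene AL392046.1, which had 20 counts over all libraries against 3376 for CREM. CREB1 shares 59 exon bases with the antisense gene AC009226.1, which had 172 counts against 16089. CRTC3 shares 103 exon bases with CRTC3-AS1, which had 179 counts against 8710. Reads of such pairs cannot be told apart without strand, and the strand setting of the counting is not given in the sources used here.

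Each library held between 13535825 and 22699756 counts in genes. The summed level of the epithelial markers KRT7, KRT8, KRT18, KRT19 and EPCAM was 5574 to 6880 CPM (read counts scaled to library size by TMM) with control siRNA and 5219 to 6428 with SIK3 siRNA, with 5 of 5 markers at a mean of at least 1 CPM. Endothelial markers reached this in 0 of 2 cases and fibroblast markers in 1 of 3, COL1A1, with sums of 5.50 to 9.33 and 7.61 to 16.3 CPM; the part of the fibroblast markers in any result was not tested. SIK3 itself stood at 34.3 and 60.4 CPM (replicates 1 and 2) in unstimulated control cells, 42.5 and 68.7 after 30 min and 34.4 and 65.2 after 4 h of TNF, against 16.3 and 22.4, 17.3 and 24.0, and 18.3 and 22.8 with SIK3 siRNA. By table name the 2 sets of 6 libraries did not overlap, whereas by title they did, at 17.3 to 65.2 CPM for control siRNA and 16.3 to 68.7 for SIK3 siRNA. The difference by table name was -1.29, -1.43 and -1.27 on the log2 scale at the 3 times (edgeR adjusted p 0.0231, 0.0146 and 0.0244). The call was lost at each time without control replicate 2 (-0.85, -1.06 and -0.74, edgeR adjusted p 0.158, 0.105 and 0.188) or without SIK3 siRNA replicate 1 (-1.09, -1.23 and -1.13, adjusted p 0.135, 0.095 and 0.13), and at 4 h also without SIK3 siRNA replicate 2 (-1.45, 0.0684). With the replicate number as a block the adjusted p was at most 3.54e-09.

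CREB1, the founding factor of the family, was lower with SIK3 siRNA at every time. Unstimulated control cells had 93.5 and 87.6 CPM and unstimulated SIK3 siRNA cells 52.6 and 46.2. After 30 min of TNF the values were 90.1 and 86.8 with control siRNA and 48.9 and 49.1 with SIK3 siRNA. After 4 h they were 131.7 and 117.6 with control siRNA and 69.2 and 67.3 with SIK3 siRNA. The highest SIK3 siRNA library (69.2 CPM) lay below the lowest control library (86.8 CPM). CREB1 was 1.83-fold lower without TNF (log2 difference -0.87 ± 0.10 SE, 95% interval -1.09 to -0.65, edgeR adjusted p 9.85e-05), 1.80-fold lower after 30 min (-0.85, -1.07 to -0.63, edgeR adjusted p 0.000117) and 1.83-fold lower after 4 h (-0.87, -1.09 to -0.65, edgeR adjusted p 0.000115). Leaving out any library in turn kept each of these calls, with differences between -0.99 and -0.77.

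CREM was higher with SIK3 siRNA at every time, with 88 to 207 counts per control library and 292 to 579 per SIK3 siRNA library. Unstimulated control cells had 10.9 and 6.22 CPM and unstimulated SIK3 siRNA cells 23.7 and 21.2. After 30 min of TNF the values were 9.60 and 7.71 against 29.5 and 22.1, and after 4 h they were 8.38 and 6.96 against 19.4 and 18.6. The lowest SIK3 siRNA library (18.6 CPM) stood above the highest control library (10.9 CPM). The rise was 2.59-fold without TNF (log2 difference 1.37 ± 0.25 SE, interval 0.81 to 1.94, edgeR adjusted p 0.00196), 2.98-fold after 30 min (1.57, 1.01 to 2.13, edgeR adjusted p 0.000865) and 2.47-fold after 4 h (1.30, 0.73 to 1.88, edgeR adjusted p 0.00299). Each call held without any 1 library, with differences of 1.02 to 1.83.

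ATF1, which pairs with CREB1 and CREM on the same element, was also higher with SIK3 siRNA, by less than CREM. Its values were 33.4 and 31.7 CPM against 48.3 and 44.1 without TNF, 39.9 and 34.1 against 51.6 and 45.9 after 30 min, and 35.9 and 32.3 against 52.4 and 49.9 after 4 h. The 6 SIK3 siRNA libraries (44.1 to 52.4 CPM) did not overlap with the 6 control libraries (31.7 to 39.9 CPM). ATF1 was 1.42-fold higher without TNF (log2 difference 0.51 ± 0.12 SE, interval 0.25 to 0.77, edgeR adjusted p 0.00638), 1.32-fold higher after 30 min (0.40, 0.14 to 0.65, edgeR adjusted p 0.0212) and higher by 0.58 (log2) after 4 h (0.33 to 0.84, edgeR adjusted p 0.00314). The call at 30 min was lost without replicate 2 of the control group at that time (0.27, edgeR adjusted p 0.174) or replicate 1 of the SIK3 siRNA group (0.29, 0.154). The call without TNF was lost without replicate 1 of the SIK3 siRNA group (0.43, edgeR adjusted p 0.0529).

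**Figure D1:**
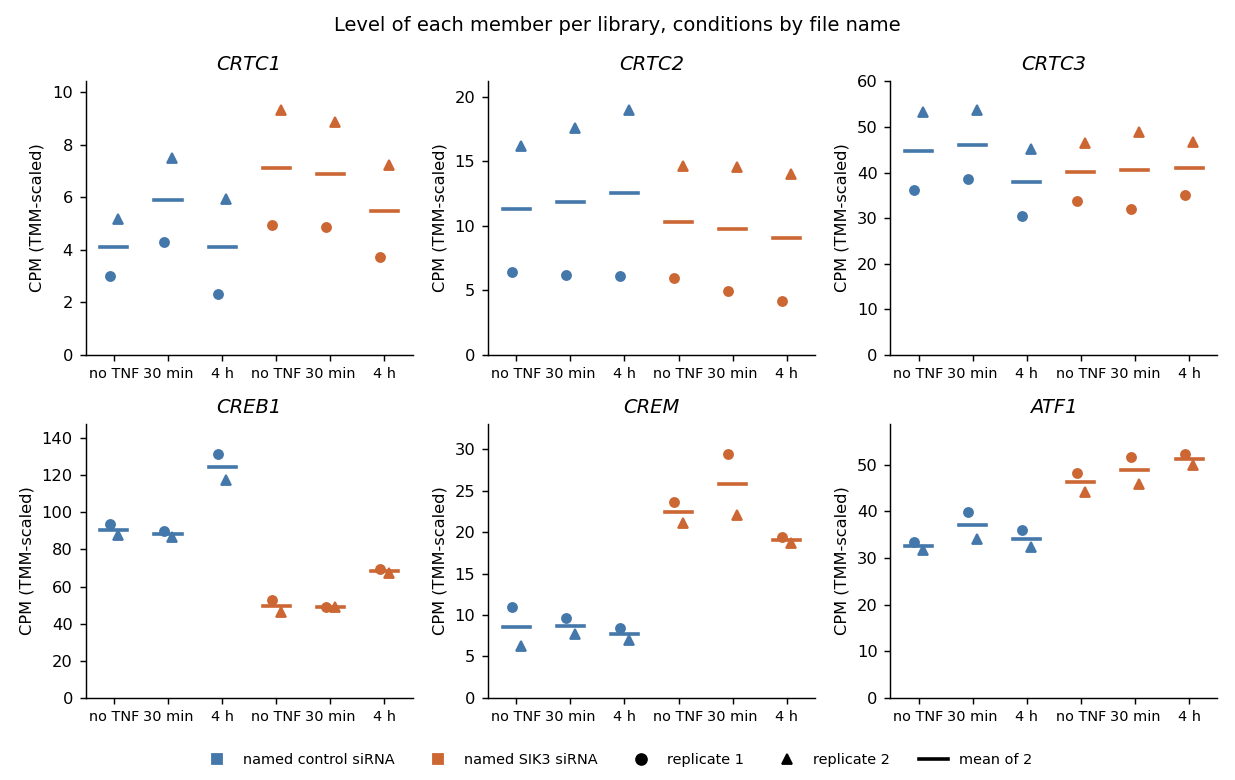
Level of each member in CPM (vertical axis, linear from 0) in the 12 libraries, grouped along the horizontal axis by TNF time, with control siRNA in blue and SIK3 siRNA in orange by table name; circles are replicate 1, triangles replicate 2 and bars the mean of the 2. CREB1 sits at 46.2 to 69.2 CPM with SIK3 siRNA and 86.8 to 131.7 with control siRNA, CREM and ATF1 stand higher with SIK3 siRNA, and the CRTC genes differ more between replicates than between groups.

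Many genes differed between the siRNAs, and the 3 of 6 members that did have to be read against that. Of 16695 genes tested, 38.6% passed between the siRNAs without TNF (18.9% higher and 19.8% lower with SIK3 siRNA), 37.8% after 30 min (18.2% and 19.6%) and 39.5% after 4 h (19.6% and 19.9%). Values of 34.4% of genes did not overlap between the 6 SIK3 siRNA and 6 control libraries (16.8% higher and 17.6% lower with SIK3 siRNA). The members' median log2 difference was 0.18, 0.02 and 0.28 at the 3 times, beside 0.01, -0.01 and 0.03 over all genes. A share of 3 in 6 is not far from this background. In bulk RNA fewer cells of a kind and less RNA per cell cannot be told apart.

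None of the 3 CRTC genes passed in the fit without the replicate block, and their values overlapped in each of the 7 comparisons between 2 groups. CRTC1 was the least abundant, with 3.01 and 5.16 CPM in unstimulated control cells against 4.93 and 9.32 in unstimulated SIK3 siRNA cells. After 30 min it had 4.28 and 7.50 against 4.89 and 8.88, and after 4 h 2.31 and 5.93 against 3.72 and 7.22. The log2 differences were 0.80 (interval -0.44 to 2.03, edgeR adjusted p 0.29), 0.23 (-0.96 to 1.41, 0.775) and 0.45 (-0.82 to 1.71, 0.572). With the replicate number as a block, CRTC1 was higher with SIK3 siRNA without TNF (0.79, interval 0.44 to 1.14, edgeR adjusted p 0.000334) and after 4 h (0.44, 0.06 to 0.82, 0.0424). Without the filter on low counts the unstimulated difference also passed (0.79, edgeR adjusted p 0.012). Within each replicate number CRTC1 was higher with SIK3 siRNA at all 3 times, a pattern whose share over all genes was not taken.

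CRTC2, the coactivator known from the fasting response in liver, had 6.40 and 16.2 CPM in unstimulated control cells and 5.98 and 14.6 with SIK3 siRNA. It had 6.20 and 17.6 against 4.94 and 14.6 after 30 min, and 6.13 and 19.0 against 4.18 and 14.0 after 4 h. The log2 differences of -0.14, -0.28 and -0.44 had intervals from -2.32 to 1.74 at their widest ends (edgeR adjusted p 0.918, 0.819 and 0.724). With the block CRTC2 was lower after 4 h (-0.46, interval -0.74 to -0.18, edgeR adjusted p 0.00517) and missed the threshold after 30 min (-0.29, edgeR adjusted p 0.0501). Within each replicate number the SIK3 siRNA library was the lower of the 2 at all 3 times, and here too the share over all genes was not taken.

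CRTC3, the most abundant of the 3 in CPM, had 36.1 and 53.4 CPM in unstimulated control cells and 33.7 and 46.5 with SIK3 siRNA. After 30 min it had 38.6 and 53.7 against 31.9 and 49.0, and after 4 h 30.5 and 45.2 against 35.1 and 46.8. The log2 differences were -0.16 (interval -0.84 to 0.52), -0.19 (-0.87 to 0.49) and 0.12 (-0.57 to 0.80), with edgeR adjusted p of 0.72, 0.666 and 0.801. With the block CRTC3 was lower with SIK3 siRNA after 30 min (-0.20, interval -0.35 to -0.05, edgeR adjusted p 0.0224). The intervals without the block are too wide to show that the CRTC transcripts were alike. In the blocked fit 58.4%, 58.5% and 58.8% of all genes passed at the 3 times.

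**Figure D2:**
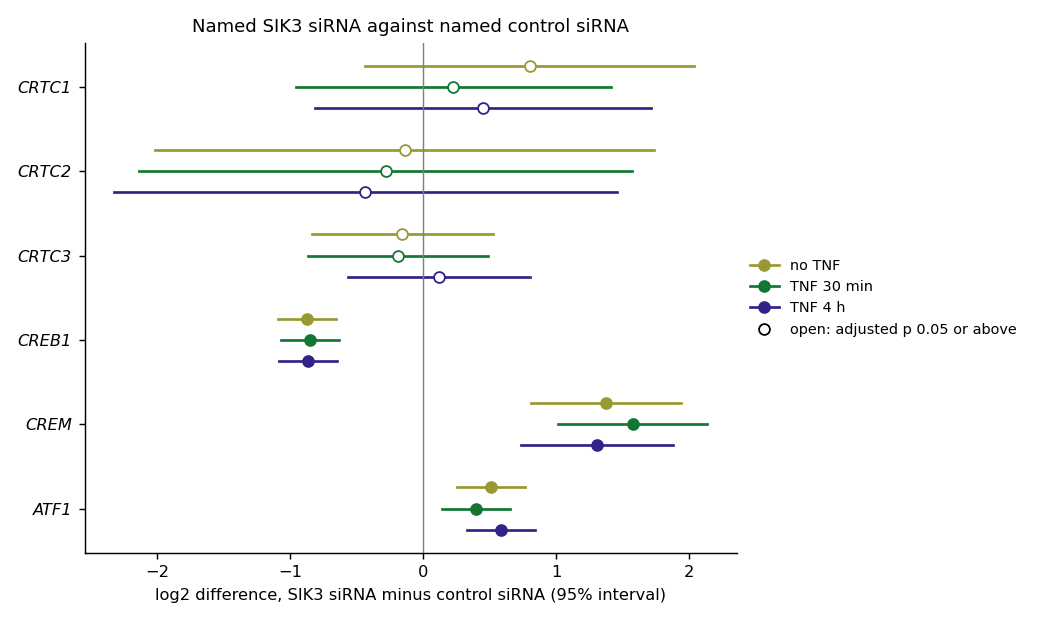
Log2 difference between SIK3 siRNA and control siRNA by table name (horizontal axis, with 95% intervals from the fit without the replicate block) for the 6 members at 3 times, shown in colour; open circles did not pass the threshold. The intervals of CREB1 lie wholly below 0 and those of CREM and ATF1 wholly above it, whereas each CRTC interval spans 0.

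The CRTC genes differed mainly between replicate numbers. CRTC2 was 2.45 to 3.35 times as high in replicate 2 as in replicate 1 of the same group, CRTC1 1.71 to 2.57 times and CRTC3 1.33 to 1.54 times, each in 6 of 6 groups. CREM went the other way, with replicate 1 at 1.04 to 1.76 times replicate 2, as did ATF1 at 1.05 to 1.17 times, each in 6 of 6 groups. CREB1 was higher in replicate 2 in 1 of 6 groups, with ratios of 0.878 to 1.00. Over all tested genes 18.1% were higher in replicate 2 in all 6 groups and 20.5% were higher in replicate 1. Reads that mapped to several places were 4.94 to 17.6% in replicate 1 libraries and 10.2 to 45.3% in replicate 2 libraries, and their part in these ratios was not tested.

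**Figure D3:**
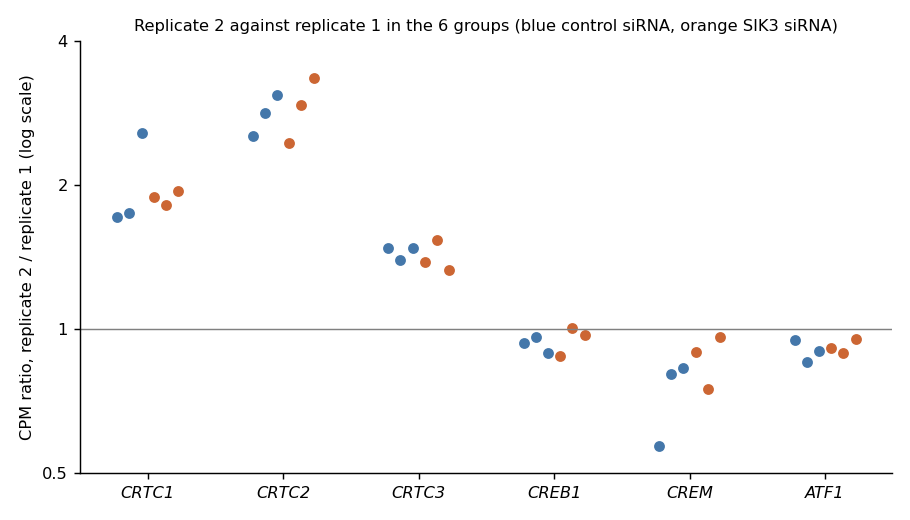
Ratio of the CPM in replicate 2 to that in replicate 1 (vertical axis, log scale) for each member in the 6 groups, blue for control siRNA and orange for SIK3 siRNA by table name. CRTC2 lies at 2.45 to 3.35 and CRTC1 at 1.71 to 2.57, above the line at 1, while CREM and ATF1 lie below it in every group.

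The response of the members to TNF was then tested at 30 min and 4 h within each siRNA. After 30 min 0 of 6 members passed with either siRNA, beside 0.294% of all genes with control siRNA and 0.15% with SIK3 siRNA. In this fit 0 members had an unadjusted p under 0.05 in edgeR. With the block again 0 passed, beside 2.78% and 3.37% of all genes. An unadjusted edgeR p under 0.05 with the block and control siRNA was seen for CRTC1 (0.52, p 0.00669) and ATF1 (0.19, p 0.0188), beside 2193 of 16695 genes. With SIK3 siRNA 0 members had one. After 4 h CREB1 passed with both siRNAs, beside 8.99% of all genes with control siRNA (5.53% higher and 3.46% lower after TNF) and 4.42% with SIK3 siRNA. CREB1 rose from 93.5 and 87.6 to 131.7 and 117.6 CPM with control siRNA, which is 1.38-fold (log2 difference 0.46 ± 0.10 SE, interval 0.24 to 0.68, edgeR adjusted p 0.0153). With SIK3 siRNA it rose from 52.6 and 46.2 to 69.2 and 67.3 CPM, again 1.38-fold (0.47, 0.25 to 0.69, edgeR adjusted p 0.0269). Both replicates at 4 h stood above both unstimulated replicates with each siRNA, but the share of all genes apart in this way was not taken. Members that did not pass were also apart: CREM and ATF1 after 4 h with SIK3 siRNA, and ATF1 after 30 min with control siRNA.

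With the replicate number as a block the edgeR adjusted p of these 2 calls was 5.9e-06 with control siRNA and 1.98e-05 with SIK3 siRNA. In that fit 23.5% and 21.8% of all genes passed. In the fit without the block the 2 calls are near the threshold. With control siRNA the call was lost without unstimulated replicate 1 (0.51, edgeR adjusted p 0.0531), unstimulated replicate 2 (0.41, 0.101) or 4 h replicate 1 (0.38, 0.117). With SIK3 siRNA it was lost without any 1 of the 4 libraries compared, at differences of 0.36 to 0.56 and edgeR adjusted p of 0.0601 to 0.246.

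The other 5 members ranged from -0.24 to 0.15 (log2) after 4 h with control siRNA and from -0.35 to 0.14 with SIK3 siRNA, with edgeR adjusted p of at least 0.638. With the block CRTC3 was lower after 4 h with control siRNA (-0.24, interval -0.40 to -0.08, edgeR adjusted p 0.0221), beside 23.5% of all genes in that fit. CREM, whose short ICER form is a known early product of cAMP signalling, differed by -0.17 (interval -0.75 to 0.41) with control siRNA and -0.24 (-0.78 to 0.30) with SIK3 siRNA after 4 h. The 30 min and 4 h comparisons of an siRNA share their unstimulated libraries, and the comparisons between siRNAs share libraries with both.

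**Figure D4:**
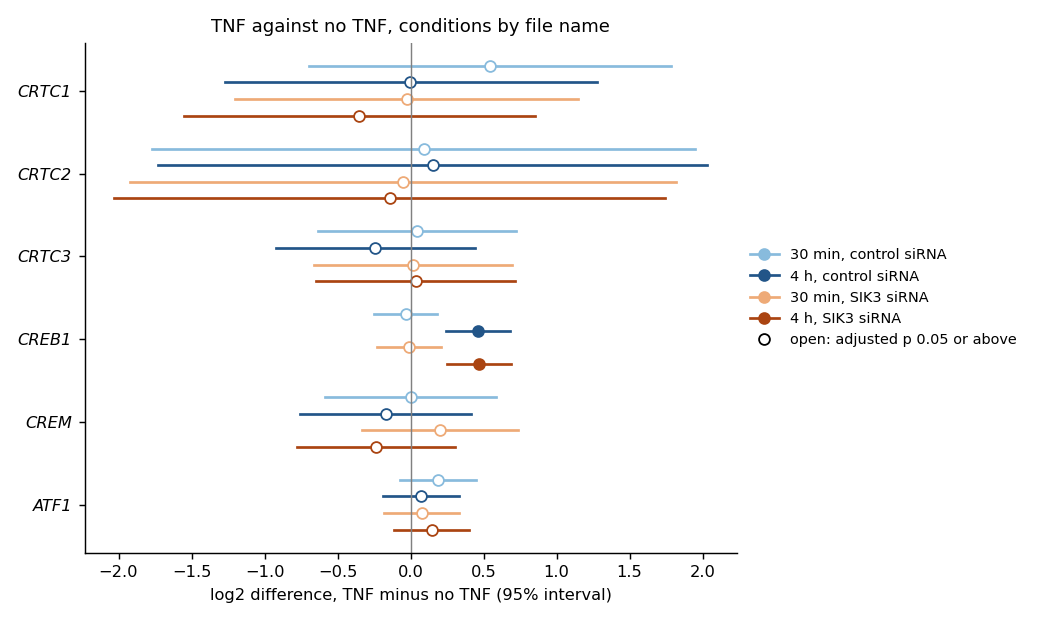
Log2 difference between TNF and no TNF (horizontal axis, with 95% intervals) for the 6 members at 30 min and 4 h, blue shades for control siRNA and orange shades for SIK3 siRNA by table name; open circles did not pass the threshold. CREB1 after 4 h, at 0.46 and 0.47, gives the only filled points.

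Whether the response to TNF differed between the siRNAs was tested by an interaction term. No member passed, beside 0% of all genes at 30 min and 1.56% at 4 h. At 30 min edgeR called 0 of 16695 genes, 317 had an unadjusted p under 0.05 and DESeq2 called 6. For CREB1 at 4 h the difference of the responses was 0.00 (log2, interval -0.30 to 0.31). For CREM it was -0.07 (-0.87 to 0.73) and for ATF1 0.08 (-0.29 to 0.44). With the replicate block again 0 members passed, beside 0.264% of all genes at 30 min and 12% at 4 h.

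Levels per kilobase were taken over all annotated exons of a gene, 9575 bases for CREB1, 5699 for CREM and 2790 for ATF1. The transcripts expressed may be shorter, so the order of genes depends on these lengths. In mean CPM CREB1 (90.5) stood above ATF1 (32.5) in unstimulated control cells. Per kilobase the order there was ATF1 (11.7 ± 0.43 CPM per kb, SD, n = 2), CREB1 (9.45 ± 0.43), CRTC3 (4.14 ± 1.13), CRTC2 (3.13 ± 1.92), CREM (1.51 ± 0.59) and CRTC1 (0.587 ± 0.218). CRTC3 and CRTC2, and CRTC2 and CREM, lay within the spread of their replicates. In unstimulated SIK3 siRNA cells ATF1 stood at 16.6 ± 1.05, CREB1 at 5.16 ± 0.47, CREM at 3.93 ± 0.31, CRTC3 at 3.71 ± 0.83, CRTC2 at 2.85 ± 1.69 and CRTC1 at 1.02 ± 0.45. CREM thus took the place after CREB1 there, though it, CRTC3 and CRTC2 did not differ beyond their spread.

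Of the summed per-kilobase level of the 3 factors, CREB1 made up 37.0 to 49.0% in control libraries and 17.8 to 25.0% in SIK3 siRNA libraries. CREM made up 4.87 to 8.12% and 11.6 to 18.0%, and ATF1 45.8 to 56.3% and 63.5 to 65.0%. The sum itself was 21.6 to 28.1 CPM per kb with control siRNA and 24.4 to 29.4 with SIK3 siRNA, so these ranges overlapped while the shares did not. The ratio of CREM to CREB1 was 0.0994 to 0.197 in control libraries and 0.465 to 1.01 in SIK3 siRNA libraries. These shares follow from the 3 levels already given and from the annotated exon lengths, and carry no test of their own.

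**Figure D5:**
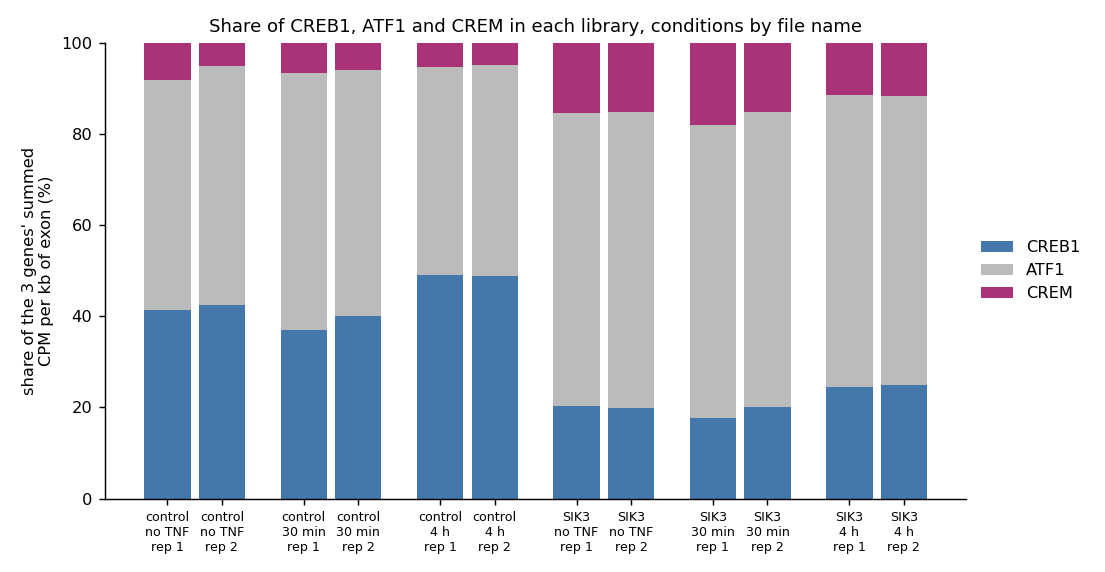
Share of CREB1 (blue), ATF1 (grey) and CREM (purple) in their summed CPM per kb of exon (vertical axis, percent) in each of the 12 libraries, labelled by table name. CREB1 takes 37.0 to 49.0% in the control libraries and 17.8 to 25.0% in the SIK3 siRNA libraries, and CREM and ATF1 hold the rest.

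Across the 12 libraries, as a description, log2(CPM + 1) of CREB1 ran against that of CREM (Pearson r -0.89) and ATF1 (-0.77), while CREM and ATF1 ran together (0.92), and so did CRTC2 and CRTC3 (0.91). The libraries share siRNA, time and replicate number, which all enter these values. Among genes with a mean of at least 10 CPM, the pattern most like that of CREB1 belonged to FAM111A (r 0.994) and ZNF267 (0.993), and the pattern most like that of CREM to ATPAF1 (0.997) and XYLT2 (0.994). For ATF1 they were COL4A5 (0.987) and KDM1A (0.981). CRTC1 was most like SOX12 and FOXJ3 (both 0.976), CRTC2 most like FOXRED2 (0.980) and TGOLN2 (0.978), and CRTC3 most like DYNC2I1 (0.984) and DVL3 (0.977). Of 9115 genes compared (9116 for CRTC1), r was above 0.95 for 384 with CREM, 142 with CREB1, 68 with ATF1, 50 with CRTC2, 28 with CRTC3 and 7 with CRTC1.

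The kinases and cAMP enzymes upstream of the factors split in both directions. Of 24 such genes 10 were higher and 4 lower with SIK3 siRNA without TNF, 9 and 5 after 30 min, and 8 and 5 after 4 h, with a median log2 difference of 0.09, 0.19 and 0.03. Over all genes 38.6%, 37.8% and 39.5% passed at the 3 times. The blocked fit gave 12 higher and 6 lower without TNF, 12 and 6 after 30 min, and 9 and 9 after 4 h. Of all genes it called 58.4%, 58.5% and 58.8%. Higher at all 3 times were 7: the adenylyl cyclases ADCY3 and ADCY9, the protein kinase A inhibitors PKIA and PKIG, the regulatory subunit PRKAR1B, the CREB kinase RPS6KA4 (MSK2) and STK11 (LKB1), which activates the SIKs. Lower at all 3 times were 4: ADCY6, the phosphodiesterase PDE3B, the protein kinase A catalytic subunit PRKACB and the CREB kinase RPS6KA3 (RSK2). Without TNF ADCY3 was 2.93-fold higher (edgeR adjusted p 6.22e-06) and STK11 1.93-fold higher (3.29e-05), while RPS6KA3 was 2.54-fold lower (1.58e-05) and PRKACB 1.79-fold lower (5.6e-05).

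A list of 16 genes held regulators of CRTC proteins, mostly of their place in the cell, and is called the CRTC location genes. Of these 5 were higher and 4 lower without TNF, 4 and 4 after 30 min, and 3 and 6 after 4 h (median log2 difference -0.06, -0.08 and -0.26). The share over all genes was 38.6%, 37.8% and 39.5%. With the replicate block the counts were 5 higher and 6 lower without TNF, 5 and 6 after 30 min, and 5 and 9 after 4 h. The share over all genes was then 58.4%, 58.5% and 58.8%. At all 3 times the calcineurin catalytic subunit PPP3CA, the 14-3-3 protein YWHAH and SIK1 were higher, and the calcineurin subunit PPP3CB, the 14-3-3 proteins YWHAB and YWHAQ and the targeted SIK3 were lower. SIK1, itself a CREB target, went from 3.01 and 3.96 CPM in unstimulated control cells to 19.2 and 21.9 with SIK3 siRNA, 5.92-fold (edgeR adjusted p 1.82e-05), and was 4.30-fold and 6.44-fold higher after 30 min and 4 h. SIK2 was 1.52-fold higher without TNF (edgeR adjusted p 0.0283), a call lost without replicate 1 of the control group (log2 difference 0.43, edgeR adjusted p 0.198) or replicate 2 of the SIK3 siRNA group (0.44, 0.162). At 30 min and 4 h its differences of 0.36 and 0.25 passed with the block alone (edgeR adjusted p 0.000238 and 0.00624). YWHAH was 4.45-fold higher (edgeR adjusted p 1.41e-05), SFN (14-3-3 sigma) 1.62-fold higher (0.000247) and PPP3CB 2.22-fold lower (4.18e-05) without TNF.

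Among 13 coactivators and related leucine zipper genes 3 were higher and 2 lower without TNF, 3 and 2 after 30 min, and 2 and 2 after 4 h (median -0.18, 0.03 and -0.13). These counts are near or below the share over all genes, 38.6%, 37.8% and 39.5%. ATF2, which binds CRE-like elements with JUN, was 2.59-fold higher without TNF (edgeR adjusted p 7.84e-06), and ATF4, the factor of the integrated stress response, 1.78-fold higher (2.63e-05); both were higher at all 3 times. CREB3 was 1.94-fold higher (edgeR adjusted p 0.00301) and CREB3L4 1.85-fold lower (0.00511) without TNF, the latter a call lost with the compared libraries alone (0.0511). CREB3L4 and CREBL2 were lower at all 3 times. With the replicate block 5 were higher and 5 lower without TNF, 3 and 5 after 30 min, and 5 and 4 after 4 h. All genes passed in that fit at 58.4%, 58.5% and 58.8%.

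Among 15 known CREB target genes, a list drawn up with earlier results of these data known, 10 were higher and 1, FOS, lower without TNF, 9 and 0 after 30 min, and 12 and 1 after 4 h, where all genes divided about evenly. Over all genes 38.6%, 37.8% and 39.5% passed. The median log2 difference of the 15 targets was 1.20, 0.89 and 1.75. At all 3 times 9 were higher: AREG, DIO2, DUSP1, IRS2, NR4A1, NR4A3, RGS2, SCG2 and SIK1. DIO2, the enzyme that activates thyroid hormone, was 28.1-fold higher without TNF (edgeR adjusted p 7.43e-07), the secretory granule protein SCG2 12.8-fold (7.17e-07) and the MAP kinase phosphatase DUSP1 2.30-fold (1.97e-05). SIK1 stands in this list and in the one on CRTC location. With the replicate block 11 of the 15 targets were higher and 1 lower without TNF, 10 and 0 after 30 min, and 13 and 1 after 4 h. The blocked fit called 58.4%, 58.5% and 58.8% of all genes at these times.

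After 4 h of TNF with control siRNA 2 of the 15 targets were higher and 4 lower, beside 8.99% of all genes. BDNF fell 6.28-fold (edgeR adjusted p 0.000653) and FOS 3.51-fold (0.000194). Both are among the 4 targets with the smallest p, and the 2 higher targets are not. The level of DUSP1, another target, went up from a mean of 138.2 to 195.4 CPM. Of the upstream genes 1 rose and 1 fell, RPS6KA2 (RSK3) by 2.52-fold upward (edgeR adjusted p 0.00623) and PRKACB by 1.34-fold downward (0.0121). Of the CRTC location genes 2 rose, SFN 2.96-fold (edgeR adjusted p 9.2e-06) and the calcineurin inhibitor RCAN1 3.67-fold (3.91e-05). Of the related leucine zipper genes 2 rose, ATF3 2.06-fold (edgeR adjusted p 3.69e-05) and CREB3 1.69-fold (0.0352). The RPS6KA2 call was lost without unstimulated replicate 1 (log2 difference 1.25, edgeR adjusted p 0.0633), the PRKACB call without that library (-0.37, 0.0808) or 4 h replicate 2 (-0.40, 0.0923), and the CREB3 call without any of 5 libraries, at edgeR adjusted p up to 0.218: unstimulated replicate 2 and 4 h replicate 1 of the control siRNA, unstimulated replicate 2 of the SIK3 siRNA and both 4 h replicates of the SIK3 siRNA. With SIK3 siRNA the same counts were 0 higher and 4 lower of the targets, 0 and 1 of the upstream genes, 2 and 0 of the CRTC location genes and 1 and 0 of the leucine zipper genes. Of all genes 4.42% passed there. With the replicate block these counts were, in the same order, 2 and 7, 2 and 3, 6 and 2, and 2 and 1 with control siRNA. With SIK3 siRNA the blocked fit gave 4 and 6, 3 and 5, 3 and 3, and 2 and 4. It called 23.5% of all genes with control siRNA and 21.8% with SIK3 siRNA.

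When the conditions were taken from the titles, the factors were tied to other contrasts. Between titled siRNAs 0 of 6 members passed without TNF, beside 0.294% of all genes. After 30 min CREB1 (-1.33 on the log2 scale, edgeR adjusted p 6.14e-06), CREM (1.54, 0.000923) and ATF1 (0.44, 0.0121) passed, beside 42.5%. After 4 h only CREB1 passed in the fit without the block, now higher with the titled SIK3 siRNA (0.48, edgeR adjusted p 0.0179), beside 7.08%. With titles and the block CREM passed too, lower with the titled SIK3 siRNA (-0.42, edgeR adjusted p 0.00772), beside 27.8% of all genes. SIK3 differed by 0.23, -1.37 and -0.01 in the same 3 comparisons (edgeR adjusted p 1, 0.0165 and 0.997). Of the 15 CREB targets 2 were higher and 0 lower without TNF, 12 and 0 after 30 min, and 0 and 6 after 4 h. Each CRTC gene again missed the threshold in these 3 comparisons in the fit without the block.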

How the data were processed

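RNA was isolated with a column kit including DNase I digestion and libraries were made with a ScriptSeq kit, per the labels' protocols. The authors deposited 1 table of raw read counts per gene and library, and the submitters' processing notes name STAR 2.05b, edgeR and GRCh38; the annotation release and strand setting are not given in the sources used here. Reads counted as unmapped, multimapping, without a feature or ambiguous were kept out of library totals. Of all reads in a table, 8.35 to 17.1% had no feature and 1.77 to 4.78% were ambiguous. The 2 libraries named SIK3 siRNA with TNF for 4 h had 16.5 and 17.1% without a feature, and no other library had above 10.5%. The part of this in the comparisons that use that group was not tested. Identifiers were given symbols from the reference name table and GENCODE 29, and 3742 of 60669 had none.

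Genes were filtered with filterByExpr (minimum count 10, 16695 genes), scaled by TMM and fitted with edgeR 4.0.16 (R 4.3.3, quasi-likelihood, 12 libraries in 6 groups named by the words in the table names, 6 residual degrees of freedom). p-values were adjusted by Benjamini-Hochberg over all genes, with a threshold of 0.05. CPM are TMM-scaled. Standard errors came from the log2 difference and its F value. Replicate numbers paired the libraries: deviations of same-numbered libraries correlated at 0.544 to 0.731 (median 0.621) in 15 of 15 pairs of groups. The blocked value is therefore given where it changes the call of a reported value with conditions by table name. The design text calls the replicates biological. Alternatives were conditions from titles, the replicate block, both together, DESeq2 1.42.0, DESeq2 size factors, library totals, all genes unfiltered, a filter that asks for 1 CPM in 4 libraries, the compared libraries alone and each library left out. Tables and figures were made with Python 3.11.15.

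Members and lists were chosen with earlier results of these data known. Named with values were the members in every comparison, the SIK genes between siRNAs, up to 4 genes with the smallest p per list, and the 2 genes most like each member. The result of 1 further marker list is not reported here.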

Additional observations from a re-analysis of the deposited data

Results flagged for a closer look

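The response to 4 h of TNF differed between the siRNAs, by the interaction term in edgeR, for 3 of the listed genes, with conditions by table name. Of all genes 1.56% passed. For BDNF, a CREB target, the response was 2.0 log2 units higher with SIK3 siRNA than with control siRNA (edgeR adjusted p 0.0484): it was -2.65 with control siRNA and -0.66 with SIK3 siRNA, the control libraries at 4 h held 8 counts each, and the call was lost without any 1 of the 12 libraries (1.65 to 2.27, edgeR adjusted p 0.055 to 0.238) and also with DESeq2 size factors or the compared libraries alone (up to 0.112). For FOS, another target, it was 1.96 higher (edgeR adjusted p 0.00706), from -1.81 with control siRNA and 0.15 with SIK3 siRNA. For SFN, a 14-3-3 protein, it was -1.09 (edgeR adjusted p 0.00531), from 1.57 with control siRNA and 0.48 with SIK3 siRNA. With the replicate block, in which 12% of all genes passed this term, 1 upstream gene was higher and 1 lower, 3 CRTC location genes were lower (SIK2 among them, -0.35, edgeR adjusted p 0.0296), 1 related leucine zipper gene was lower and 5 CREB targets were higher.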

How the results depend on the processing

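The 3 members called between the siRNAs kept their direction under every alternative that used the table names. ATF1 after 30 min missed the threshold without the filter and with the compared libraries alone (edgeR adjusted p up to 0.0579), and CREB1 after 4 h of TNF missed it with the compared libraries alone (up to 0.125). With the compared libraries alone the CREB3L4 call between siRNAs without TNF was also lost (edgeR adjusted p 0.0511). Other settings are given here where they moved a count of calls by over 1.5 times or turned a called direction; comparisons stand in the order no TNF, 30 min and 4 h between siRNAs, then TNF 30 min and 4 h with control siRNA, then the same with SIK3 siRNA, then the interactions at 30 min and 4 h.

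With the replicate block the genes called were 9746 and 9771 between siRNAs without TNF and after 30 min, 464, 3928, 563 and 3642 in the TNF comparisons and 44 and 1996 in the interactions, and the members called were 5 between siRNAs after 4 h and 2 after 4 h of TNF with control siRNA. With conditions by table name the block changed no call of a member other than those given above for the CRTC genes. DESeq2 called 85 and 57 genes after 30 min of TNF with control and SIK3 siRNA and 6 in the interaction at 30 min. Without the filter the genes were 101, 90 and 1109 (TNF 30 min with each siRNA, 4 h with SIK3 siRNA) and 18 and 505 in the interactions, with 0 members after 4 h of TNF with SIK3 siRNA, as with library totals. With the compared libraries alone they were 14, 614, 0 and 263 in the TNF comparisons and 96 in the interaction at 4 h, with 0 members after 4 h with either siRNA. Leaving out each library gave 22 to 44, 857 to 1360, 6 to 25 and 212 to 699 genes in the TNF comparisons, 0 to 1 members after 4 h with each siRNA, and 61 to 189 genes in the interaction at 4 h. Between siRNAs it gave 2 to 3 members without TNF and after 30 min and 3 after 4 h.

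With conditions from titles the genes called were 49 and 1182 between siRNAs without TNF and after 4 h, 1501, 6330, 6687 and 6980 in the TNF comparisons and 4760 and 576 in the interactions. The members called were 0 and 1 between siRNAs without TNF and after 4 h, 1, 3, 3 and 3 in the TNF comparisons and 2 in the interaction at 30 min. With titles and the replicate block together the genes were 464 and 10185 between siRNAs without TNF and after 30 min, 3928, 9648, 9980 and 10302 in the TNF comparisons and 8415 and 3374 in the interactions; the members were 0 between siRNAs without TNF, 2, 4, 4 and 5 in the TNF comparisons and 3 and 2 in the interactions.

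By title these log2 differences turned sign, with the value from titles and the block after it where the 2 differ. CREB1 was 0.48 between siRNAs after 4 h, 0.46 after 30 min of TNF and -0.89 (-0.88) after 4 h with control siRNA, -0.37 after 4 h with SIK3 siRNA and -1.3 in the interaction at 30 min. CREM was -0.44 (-0.42) between siRNAs after 4 h, 1.57 (1.56) after 4 h of TNF with control siRNA and 1.13 (1.15) with SIK3 siRNA. SIK1 was -0.55 between siRNAs after 4 h and SIK3 0.23 (0.24) without TNF. Between siRNAs without TNF ATF4 was -0.21 (-0.2), CREB3 -0.18 (-0.17), CREB3L4 0.04 (0.03), DIO2 -0.02, PRKACB 0.03, RPS6KA3 0.01 and SFN -0.01 (-0.02). After 4 h of TNF with control siRNA BDNF was 0.56 (0.57) and FOS 0.79 (0.77). In the interaction at 4 h BDNF was -0.51 (-0.53), FOS -2.69 (-2.67) and SFN 0.61 (0.62). Among these, CREM and SIK1 between siRNAs after 4 h passed with titles and the block (edgeR adjusted p 0.00772 and 0.000482) but not with titles alone. The same held for ATF4 between siRNAs without TNF (edgeR adjusted p 0.0149) and BDNF after 4 h of TNF with control siRNA (0.0132). With titles and the block alone CRTC1 was 0.74 after 4 h of TNF with control siRNA, CRTC3 -0.24 and -0.2 after 30 min with control and SIK3 siRNA and -0.17 after 4 h with SIK3 siRNA, CREM -0.0049 between siRNAs without TNF and ATF1 0.25 in the interaction at 30 min. These turns follow from which pair of libraries carries which label.

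With 2 libraries a group and 6 residual degrees of freedom, the intervals between siRNAs reached past 1 log2 unit upward for CRTC1 (38 to 181 counts per library) and in both directions for CRTC2 (63 to 328). Leaving a library out gives a group of 1, which is assumed to vary like the others.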
